A study of Mus musculus with 9 samples.

Results

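The genes described here are the MHC class II genes and Ciita, their transactivator, in T-cells isolated from mouse bone marrow. They were chosen by name: H2-Aa, H2-Ab1, H2-Eb1, Ciita, Cd74 and every gene whose symbol begins with H2-DM or H2-O. Of 10 such symbols, 8 were matched to a probe among the 785 probes of the nCounter Mouse Immune Exhaustion panel. They were H2-Aa (transcript NM_010378.2), H2-Ab1 (NM_207105.2), H2-Eb1 (NM_010382.2), H2-DMa (NM_010386.3), H2-DMb1 (NM_010387.3), H2-DMb2 (NM_010388.4), H2-Ob (NM_010389.3) and Ciita (NM_007575.2). Cd74 and H2-Oa had no matched probe. All but Ciita, which is on chromosome 16, lie close to each other in the MHC on chromosome 17.

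RNA came from 9 female wild-type C57BL/6 mice that were 6 to 8 weeks old, were not irradiated and were harvested on day 7, with 3 mice per group. Mice without leukemia received no leukemia cells. Vehicle treated mice with leukemia received 200000 BCR-ABL1+ Arf-/- B-ALL cells by tail vein, a B-cell precursor leukemia of mouse origin that carries luciferase and GFP. In the labels these vehicle treated mice are listed as having no treatment. The rIL-12 treated mice received the same leukemia cells and, from day 3, a daily intraperitoneal dose of 1 µg recombinant murine IL-12. There was no group that received rIL-12 without leukemia, and the leukemia was a single cell line. The cells were purified with a pan-T-cell kit, which is designed to leave T-cells untouched and to remove other cells. Genes known from other cell types were still counted in the isolates, as given below.

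MHC class II molecules are pairs of an alpha and a beta chain that carry peptides from the endosomes of antigen presenting cells to the surface, where CD4 T-cells read them. B-cells, dendritic cells and macrophages are their main carriers, while mouse T-cells are known to transcribe little class II of their own. Transcription depends on CIITA, a coactivator without DNA binding of its own that docks on proteins bound to the X and Y boxes of the class II promoters. Interferon gamma, which T-cells and NK cells release in response to IL-12, acts through the kinases JAK1 and JAK2 to switch CIITA on in many cell types.

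Upstream sequences are shown because class II promoters are known for these boxes. With the letters searched here, H2-Eb1, H2-DMb1, H2-DMb2 and H2-Ob carried the design of an X box and then a Y box. H2-Aa did not match the X box letters. RefSeq promoter sequences of mouse build GRCm38.p6 were at hand for 6 of the 8 genes, and H2-Ab1 and Ciita were not among them. Shown are 110 bases, 5′ to 3′, from 130 to 21 bases before the start site. Capitals mark the X box core (AAC and, after any 3 bases, TGATG), the Y box core ATTGG and the cyclic AMP response element TGACGTCA, on either strand. The second Y box core of H2-Eb1, 35 bases before the start site, is on the opposite strand and so reads CCAAT. The genes and regions are H2-Eb1 (chr17:34305737-34305846, plus strand), H2-Aa (chr17:34287844-34287953, minus strand), H2-DMb1 (chr17:34153061-34153170, plus strand), H2-DMb2 (chr17:34145119-34145228, plus strand) and H2-Ob (chr17:34238775-34238884, plus strand).
H2-Eb1: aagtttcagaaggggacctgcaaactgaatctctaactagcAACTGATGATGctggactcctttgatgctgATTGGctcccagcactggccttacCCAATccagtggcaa
H2-Aa: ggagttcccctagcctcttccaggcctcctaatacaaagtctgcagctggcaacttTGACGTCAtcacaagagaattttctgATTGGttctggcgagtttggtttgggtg
H2-DMb1: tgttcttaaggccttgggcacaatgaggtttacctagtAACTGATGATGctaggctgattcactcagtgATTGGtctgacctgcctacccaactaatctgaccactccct
H2-DMb2: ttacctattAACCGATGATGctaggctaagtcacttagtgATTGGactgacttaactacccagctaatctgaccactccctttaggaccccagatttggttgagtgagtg
H2-Ob: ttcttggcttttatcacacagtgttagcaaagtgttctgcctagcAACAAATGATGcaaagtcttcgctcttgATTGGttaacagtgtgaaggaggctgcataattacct

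In H2-Eb1, H2-DMb1, H2-DMb2 and H2-Ob the X box core was followed by the Y box core after 19, 20, 20 and 17 bases. H2-Aa held the Y box core, 48 bases before the start site, and a cyclic AMP response element 74 bases before it, but not these X box letters. H2-DMa had 2 start sites among these sequences, at 34122832 and 34125518, and the 250 upstream bases searched held no X box core at either. The gene itself is annotated from 34119693, on the plus strand, so the bases before its outermost start were not searched. Whether H2-DMa has an X box core there was not tested. The letters were searched on both strands in 32851 mouse promoters, and the 3 motifs share no overlapping match in the printed windows. The Y box core was in 33.8% of all promoters, the cyclic AMP element in 1.55% and the X box core in 0.539%. An X box core with a Y box core within 40 bases after it was in 10 promoters (0.0304%), of which 4 were these class II genes. The X box letters were written down after the class II promoters had been viewed, so this count is a description of the sequences only. H2-Ob, the only 1 of the 8 genes that fell with rIL-12 against no leukemia in the values below, shares the design with H2-Eb1 and H2-DMb1.

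In this assay color-coded probes hybridize to RNA and are counted one by one, with no amplification step. Total counts per mouse ran from 257613, in mouse 3 of the vehicle group, to 711748. Levels below are normalized counts, the deposited counts after TMM scaling between mice. A probe for a viral gene that mice lack gave 53 to 114 counts and serves as a mark of background, although the lowest probe of each mouse gave only 5 to 16 counts. Cd3d, Cd3e and Cd3g, which define T-cells, were above the viral probe in every mouse, and the summed level of 11 T-cell genes was 6416 to 10873 without leukemia, 3855 to 5752 with vehicle and 2049 to 3866 with rIL-12. The class II probes together made up 0.470 to 0.560% of the total count without leukemia, 0.559 to 0.581% with vehicle and 0.723 to 1.52% with rIL-12. In a bulk isolate, fewer cells of a type and less RNA per cell cannot be told apart, and the same holds for more of either.

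H2-Aa encodes the alpha chain of I-A, the only class II molecule that reaches the surface in C57BL/6 mice. Its normalized count was 273, 284 and 272 without leukemia, 374, 491 and 436 with vehicle, and 1622, 3085 and 625 with rIL-12. The 3 groups did not overlap, with every vehicle treated mouse above every mouse without leukemia and every rIL-12 treated mouse above both. The rIL-12 treated mice differed widely among themselves, with a mean of 1777 ± 1238 (SD, n = 3 mice) against 434 ± 58.4 with vehicle and 276 ± 6.98 without leukemia. With edgeR's quasi-likelihood test and Benjamini-Hochberg adjustment over all 785 probes, H2-Aa was 6.42-fold higher with rIL-12 than without leukemia (log2 fold change 2.68, standard error 0.41, adjusted p = 0.000798). Against vehicle treated mice the rise was 4.09-fold (log2 fold change 2.03, standard error 0.40, adjusted p = 0.0137). With vehicle against no leukemia the log2 fold change was 0.65 (95% interval -0.21 to 1.51, adjusted p = 0.518), which did not pass the test.

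H2-Ab1 encodes the beta chain that pairs with it. It counted 146, 157 and 125 without leukemia, 227, 301 and 164 with vehicle, and 828, 1470 and 443 with rIL-12. Again the groups were fully separated, and mouse 2 was the highest and mouse 3 the lowest of the rIL-12 treated mice. H2-Ab1 rose 6.38-fold with rIL-12 over no leukemia (log2 fold change 2.67, standard error 0.36, adjusted p = 0.000664) and 3.93-fold over vehicle (log2 fold change 1.97, standard error 0.35, adjusted p = 0.0137). The difference between vehicle and no leukemia was 0.70 on the log2 scale (95% interval -0.07 to 1.47, adjusted p = 0.39).

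H2-Eb1 encodes the beta chain of I-E, which is made without a working alpha chain in this strain. Its level was 43.5, 49.6 and 54.1 without leukemia, 78.7, 119 and 78.5 with vehicle, and 180, 325 and 127 with rIL-12. No 2 groups overlapped. The probe was at or under the viral probe in all 3 mice without leukemia, above it in 1 vehicle treated mouse, and above it in all 3 rIL-12 treated mice, so the fold changes start from a level near background. H2-Eb1 rose 4.24-fold over no leukemia (log2 fold change 2.08, standard error 0.32, adjusted p = 0.000744) and 2.26-fold over vehicle (log2 fold change 1.18, standard error 0.30, adjusted p = 0.0229). When each count was raised to the viral probe of its mouse, the log2 fold change was 1.28 over no leukemia and 1.03 over vehicle, and both passed the test. The call over vehicle was lost in 9 of 24 alternatives. With vehicle H2-Eb1 was 0.91 higher than without leukemia on the log2 scale (95% interval 0.20 to 1.61), with an unadjusted p of 0.0154 in edgeR's test and an adjusted p of 0.181, and with counts raised to the viral probe this difference was 0.25. Among all probes ranked by their log2 fold change with rIL-12 over no leukemia, H2-Aa, H2-Ab1 and H2-Eb1 were in places 2, 3 and 5, the last by a fold that depends on the background.

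**Figure D1:**
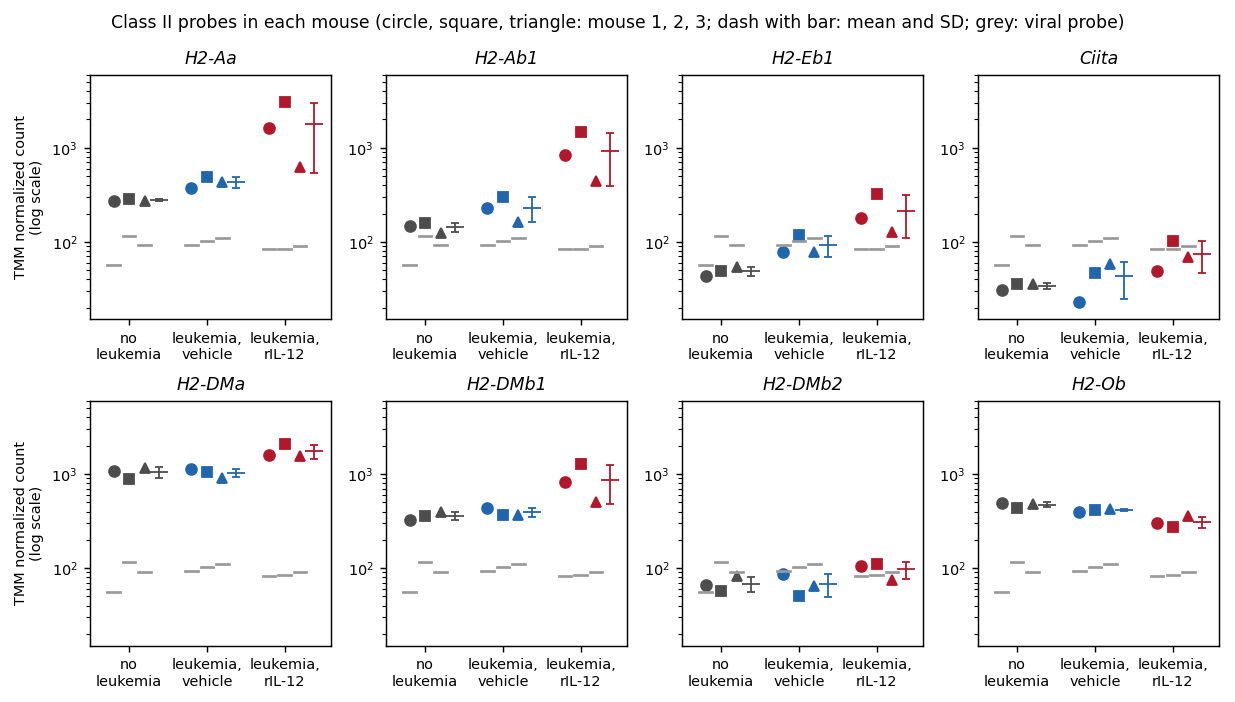
Normalized count (log axis) of each class II probe and Ciita in the 9 mice, by group, with the mouse number as the symbol and the group mean with its SD beside the points. Grey dashes give the viral probe in the same mouse. H2-Aa, H2-Ab1 and H2-Eb1 separate all 3 groups, H2-Ob declines, and Ciita and H2-DMb2 lie near or under the viral probe.

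The H2-M proteins are class II-like molecules of the endosome that load peptides onto I-A. H2-DMa, their alpha chain, counted 1088, 892 and 1149 without leukemia, 1118, 1053 and 909 with vehicle, and 1607, 2062 and 1554 with rIL-12. The first 2 groups overlapped and all rIL-12 treated mice lay above them. H2-DMa rose 1.67-fold over no leukemia (log2 fold change 0.74, standard error 0.17, adjusted p = 0.00812) and 1.69-fold over vehicle (log2 fold change 0.76, standard error 0.17, adjusted p = 0.0155). Both calls depended on the scaling and were lost with total count scaling (log2 fold changes 0.55 and 0.56), quantile normalization (0.52 and 0.42) and scaling by the summed housekeeping genes (0.29 and 0.26). Between vehicle and no leukemia the log2 difference was -0.02 (95% interval -0.38 to 0.34).

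H2-DMb1, a beta chain of H2-M, counted 326, 359 and 394 without leukemia, 438, 367 and 368 with vehicle, and 831, 1267 and 501 with rIL-12. Mice with and without leukemia overlapped in the absence of rIL-12, and the lowest rIL-12 treated mouse, mouse 3, was above all of them. It rose 2.41-fold over no leukemia (log2 fold change 1.27, standard error 0.26, adjusted p = 0.00528) and 2.21-fold over vehicle (log2 fold change 1.15, standard error 0.26, adjusted p = 0.0155). H2-DMb2, the neighboring copy of this beta chain gene, counted 65.8, 57.7 and 82.2, then 86.8, 50.8 and 65.2, and then 106, 111 and 74.5 in the same order of groups. Its groups overlapped, the rIL-12 values stood close to the viral probe, and the log2 fold changes of 0.50 over no leukemia (adjusted p = 0.167) and 0.52 over vehicle (adjusted p = 0.15) did not pass the test. Both genes are near-identical copies, and how well their probes tell the transcripts apart is not given in the sources used here, so their split is uncertain.

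H2-Ob encodes the beta chain of H2-O, an inhibitor of H2-M that is known mainly from B-cells and some dendritic cells. It counted 498, 439 and 479 without leukemia, 400, 416 and 421 with vehicle, and 299, 271 and 354 with rIL-12. The groups did not overlap and stepped down from the mice without leukemia to the rIL-12 treated mice, with means of 472 ± 30.1, 412 ± 11.3 and 308 ± 41.9 (SD, n = 3 mice each). The fall with rIL-12 against no leukemia was 1.53-fold (log2 fold change -0.62, standard error 0.15, adjusted p = 0.0147), close to the 1.5-fold needed for a call. That call was lost when no leukemia mouse 1, no leukemia mouse 3 or rIL-12 mouse 2 was left out (log2 fold changes -0.56, -0.56 and -0.53) and with quantile normalization (-0.52). Against vehicle the log2 fold change was -0.42 (adjusted p = 0.0774), and it passed the threshold when counts were scaled by their total (-0.61) or by the summed housekeeping genes (-0.89).

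Ciita, the transactivator itself, counted 30.8, 35.4 and 35.8 without leukemia, 23.2, 47.1 and 58.5 with vehicle, and 49.4, 103 and 69.3 with rIL-12. All rIL-12 treated mice lay above the mice without leukemia, while rIL-12 and vehicle treated mice overlapped. In edgeR's test Ciita was 2.15-fold higher than without leukemia (log2 fold change 1.10, standard error 0.32, adjusted p = 0.0311), and against vehicle the log2 fold change was 0.81 (adjusted p = 0.0954). The level was low throughout, above the viral probe in 1 of 9 mice. When each count was raised to the viral probe of its mouse, the log2 difference from mice without leukemia was 0.08 and that from vehicle treated mice was -0.08. The call against no leukemia was lost in 9 of 23 alternatives. Among these were the fits without no leukemia mouse 1, 2 or 3 or rIL-12 mouse 2 (log2 fold changes 0.78 to 1.19).

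In the comparison of rIL-12 treated mice with mice without leukemia, 6 of the 8 genes rose, H2-Ob fell and H2-DMb2 did not pass the test. Over all probes 8.92% rose and 8.66% fell in that comparison. The median log2 fold change of the 8 genes was 1.18, against 0.024 over all 785 probes. The groups did not overlap for 6 genes that were higher and 1 that was lower, which was the case for 18.9% and 16.7% of all probes. An exact two-sided permutation test of 3 mice against 3 gave 0.1 for each of these, the smallest p it can give. When rIL-12 mouse 2, no leukemia mouse 1 or no leukemia mouse 3 was left out, 5 of the 8 genes remained past the threshold, which were H2-Aa, H2-Ab1, H2-Eb1, H2-DMa and H2-DMb1. In those fits 72, 66 and 95 of all 785 probes passed, against 138 with all mice. The 3 comparisons share groups of mice and are not independent of each other.

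In the comparison of rIL-12 with vehicle treated mice, 5 genes rose, namely H2-Aa, H2-Ab1, H2-Eb1, H2-DMa and H2-DMb1, and none of the 8 fell. The background was 8.54% of all probes higher and 5.22% lower. The groups did not overlap for the same 5 genes, and for H2-Ob in the lower direction, against 15.4% and 15.3% of all probes. The median log2 fold change was 0.98, against -0.084 over all probes. With 1 mouse left out the log2 fold change was lowest without rIL-12 mouse 2, at 1.37 for H2-Aa, 1.45 for H2-Ab1, 0.72 for H2-Eb1, 0.62 for H2-DMa and 0.77 for H2-DMb1. The 5 genes thus stayed higher with rIL-12 than with vehicle, while the calls depended on which mice were in the fit, as they did over the whole panel. Without vehicle mouse 2, vehicle mouse 3 or rIL-12 mouse 2, edgeR called 0 of the 8 genes, with smallest adjusted p values of 0.0529, 0.0619 and 0.056 among them, and 0, 4 and 0 of all 785 probes. In the same fits 6, 6 and 5 of the genes had an unadjusted p under 0.05 with at least a 1.5-fold change, against 167, 159 and 109 of all probes. DESeq2 called 5, 6 and 4 of the genes there, against 95, 119 and 59 of all probes.

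**Figure D2:**
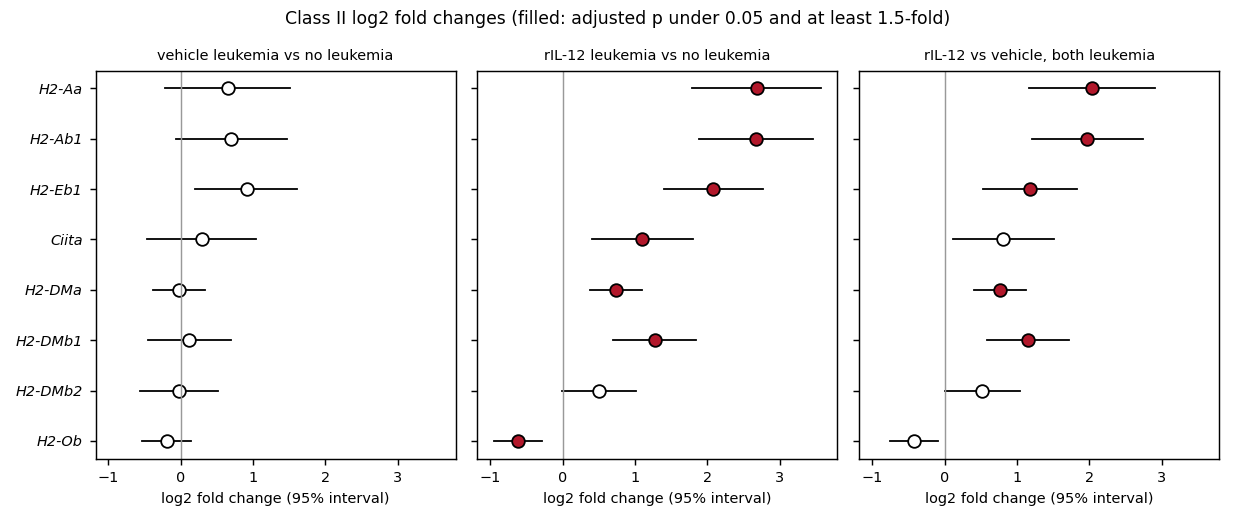
Log2 fold change (x axis) of each class II probe and Ciita in the 3 comparisons, with lines for the 95% interval from edgeR's test. Filled points passed the threshold: none with vehicle against no leukemia, 7 with rIL-12 against no leukemia and 5 with rIL-12 against vehicle.

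In the comparison of vehicle treated mice with mice without leukemia, 0 of the 8 genes passed edgeR's test, against 2.68% of all probes called in either direction. At an unadjusted p under 0.05 there was 1, H2-Eb1, where all probes gave 15.2%, and DESeq2 called 0. The groups nevertheless did not overlap for H2-Aa, H2-Ab1 and H2-Eb1, which were higher with vehicle, and for H2-Ob, which was lower, against 12.7% of all probes higher and 9.81% lower. For the 8 genes the median was 0.21 on the log2 scale, against 0.049 over all probes. The 95% intervals of H2-DMb1 (-0.45 to 0.69), H2-DMb2 (-0.56 to 0.51), H2-Ob (-0.53 to 0.14) and Ciita (-0.46 to 1.04) all held 0. With only these 2 groups in the model, H2-Aa, H2-Ab1 and H2-Eb1 passed the threshold, at log2 fold changes of 0.65, 0.70 and 0.91. That model called 63 of all 785 probes, 25 of them higher, against 21 in the model of all 3 groups.

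The 3 rIL-12 treated mice ranked in the same order for most of these genes. Mouse 2 was the highest, mouse 1 the next and mouse 3 the lowest for 6 of the 8, an order that 142 of the 785 probes (18.1%) shared. Total counts of mice 2, 1 and 3 (711748, 625318 and 500764) had that order too, as did their summed normalized housekeeping genes (70128, 63191 and 51500). Ciita was highest in mouse 2 and lowest in mouse 1, and H2-Ob was highest in mouse 3 and lowest in mouse 2. On the scale of log2(normalized count + 1) minus the mean of the mice without leukemia, H2-Aa was 2.55, 3.48 and 1.18 in mice 1, 2 and 3, and H2-Ab1 was 2.54, 3.36 and 1.63. Other genes of the interferon gamma response had another order. Gbp2, a GTPase induced by interferon gamma, was 1.79, 5.44 and 4.43 on the same scale, and Ifng, the cytokine itself, was 0.34, 2.04 and 1.36. Mouse 1 was above mouse 3 for H2-Aa and under it for Gbp2 and Ifng. Cxcl9, a chemokine that is also induced by interferon gamma, followed the order of the class II genes with 1.92, 3.60 and 1.68. These orders come from 3 mice and were not tested.

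**Figure D3:**
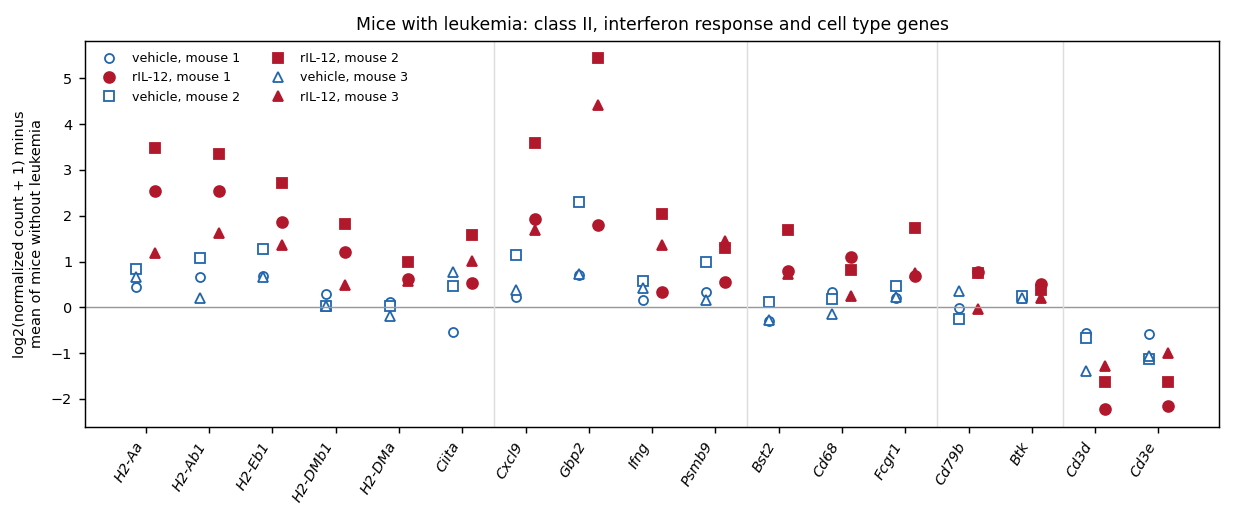
Log2(normalized count + 1) of each mouse with leukemia minus the mean of the mice without leukemia (y axis), for class II genes and Ciita, interferon response genes, Bst2, Cd68 and Fcgr1, B-cell genes and CD3 genes from left to right. Circles, squares and triangles are mice 1, 2 and 3, open for vehicle and filled for rIL-12. Among the 3 rIL-12 treated mice, the class II genes other than H2-Ob are lowest in mouse 3, while Ciita, Gbp2 and Ifng are lowest in mouse 1.

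Ratios between probes of the same mouse do not depend on the scaling between mice. The ratio of H2-Ab1 to H2-Aa raw counts was 0.537, 0.552 and 0.459 without leukemia, 0.606, 0.613 and 0.375 with vehicle, and 0.511, 0.477 and 0.709 with rIL-12. The groups overlapped, and the ratio changed 1.08-fold between rIL-12 and no leukemia (exact permutation p = 0.8). Within the rIL-12 group alone the ratio ran from 0.477 to 0.709, and mouse 3, with the least H2-Aa, had the highest. The ratio of H2-Eb1 to H2-Ab1 was 0.297, 0.316 and 0.434 without leukemia, 0.347, 0.396 and 0.480 with vehicle, and 0.218, 0.221 and 0.287 with rIL-12. H2-Eb1 was at or under the viral probe in all 3 mice without leukemia and in 2 of the 3 vehicle treated mice, so no difference between groups is read from it.

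The ratio of H2-DMa to its inhibitor's chain H2-Ob was 2.19, 2.03 and 2.40 without leukemia, 2.80, 2.53 and 2.16 with vehicle, and 5.38, 7.60 and 4.39 with rIL-12. All 3 rIL-12 treated mice were above the other 6, with a 2.56-fold higher ratio than without leukemia and a 2.27-fold higher ratio than with vehicle (exact permutation p = 0.1 each, the smallest possible, and 0.21 after adjustment over 21 tests of 7 ratios). The ratio of H2-DMb1 to H2-Ob was likewise separated, at 2.78, 4.67 and 1.42 with rIL-12 against 0.655 to 0.823 without leukemia and 0.873 to 1.10 with vehicle. H2-Aa was also set against H2-K1, a class I heavy chain. That ratio was 0.0299, 0.0364 and 0.0313 without leukemia, 0.0434, 0.0467 and 0.0620 with vehicle, and 0.138, 0.216 and 0.0535 with rIL-12. Vehicle and rIL-12 treated mice overlapped through rIL-12 mouse 3, and both groups were above the mice without leukemia.

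**Figure D4:**
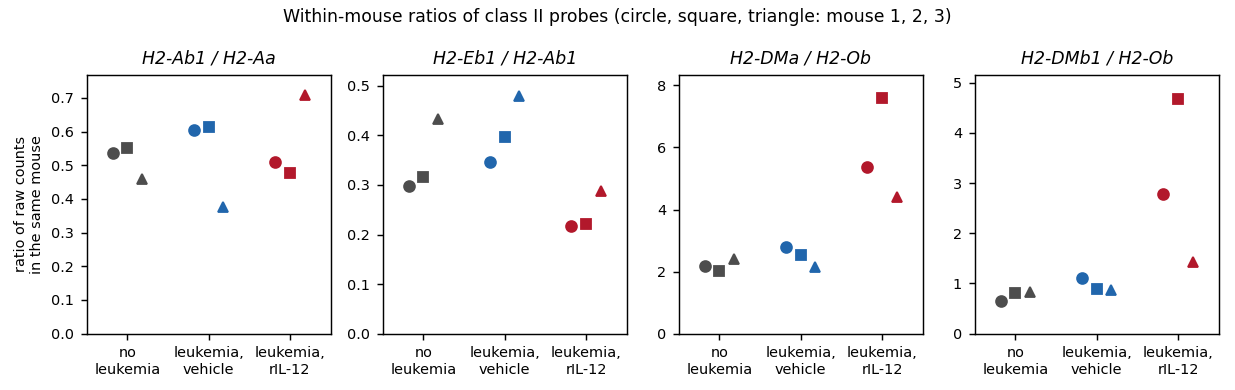
Ratio of raw counts of 2 probes within the same mouse (y axis, from 0), by group, with symbols for mice 1, 2 and 3. H2-Ab1 to H2-Aa overlaps between groups, H2-Eb1 to H2-Ab1 rests on H2-Eb1 counts at or under the viral probe in the mice without leukemia, and both H2-M chains are highest relative to H2-Ob with rIL-12.

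Along the path from interferon gamma to CIITA, 7 of 10 listed genes were measured. With rIL-12 against no leukemia 3 of them rose, Ifng and Jak2 among them, and none fell, at a median log2 fold change of 0.23. Ifng, the cytokine, counted 93.4, 138 and 127 without leukemia and 149, 488 and 304 with rIL-12, and rose by 1.39 on the log2 scale (adjusted p = 0.0113). Jak2, the kinase of the receptor, rose by 0.73 (adjusted p = 0.0213). Against vehicle, 2 rose, including Jak2 by 0.97 (adjusted p = 0.0137), while Ifng, at 1.01 (adjusted p = 0.0557), did not pass. Vehicle against no leukemia gave 0 of 7 in edgeR's test, and 1 (Jak1, lower) at an unadjusted p under 0.05. None of the 13 listed genes for the promoter-binding complex and for peptide processing with class II was matched to a probe, so the factors on the X and Y boxes are not described here.

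Of 7 measured interferon gamma targets, 3 rose with rIL-12 against no leukemia and 3 against vehicle, Cxcl9 and Gbp2 among them each time, and none fell. Cxcl9 counted 96.6, 140 and 104 without leukemia and 426, 1374 and 362 with rIL-12 (log2 fold change 2.66, adjusted p = 0.00142). Class I genes are given for comparison. Of 9 class I and peptide supply genes, 3 rose with rIL-12 against no leukemia, namely H2-M3 (log2 fold change 0.82), Psmb9 (1.14) and Psmb10 (1.21), the last 2 being subunits of the immunoproteasome, and none rose against vehicle in edgeR's test, where 3 were higher at an unadjusted p under 0.05. The median log2 fold change of that list was 0.42 with rIL-12 against no leukemia. H2-K1, at 0.56 with an adjusted p of 0.0469, was under the 1.5-fold needed.

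Among 5 costimulation genes, which antigen presenting cells show beside class II, Cd80 (log2 fold change 0.78, adjusted p = 0.0206) and Icosl (0.67, adjusted p = 0.043) rose with rIL-12 against no leukemia, and Cd86, Cd40 and Icam1 did not pass. None of the 5 passed edgeR's test in the other 2 comparisons, with 1 higher in each at an unadjusted p under 0.05. Cd80 was above the viral probe in only 2 of 9 mice. Of the receptors that bind class II, Cd4 passed in no comparison, and Lag3, an inhibitory receptor on T-cells, was 2.07 higher on the log2 scale with vehicle than without leukemia (adjusted p = 0.0187). Lag3 was at or under the viral probe in all 3 mice without leukemia, so the size of that difference depends on the background. In the IL-12 pathway, 1 of 7 genes rose with rIL-12 against no leukemia (Jak2), and against vehicle Jak2 rose and Tyk2 fell by 0.75.

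Because class II is carried mainly by other cells than T-cells, the markers of those cells in the same isolates are given beside the result. Of 7 monocyte and macrophage genes, Cd68 (log2 fold change 0.75), Fcgr1 (1.11) and Fcgr4 (1.64) rose with rIL-12 against no leukemia and none fell. Their summed level was 4614 to 5072 without leukemia, 4834 to 6233 with vehicle and 4903 to 7385 with rIL-12. Csf1r, a defining marker, was above the viral probe in all 9 mice, with a log2 fold change of 0.07 (adjusted p = 0.832), and Ccr2, the most abundant of the list, had 0.36 (adjusted p = 0.254). Against vehicle, Fcgr4 alone rose. Fcgr4 was above the viral probe in 2 of 9 mice. Fcgr1 and Fcgr4, Fc receptors of macrophages, are known interferon gamma targets as well.

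Of 5 dendritic cell genes, Bst2 rose (log2 fold change 1.13) and Siglech fell (log2 fold change -0.96) with rIL-12 against no leukemia. Against vehicle, Bst2 rose (log2 fold change 1.28) and Itgax, the gene of CD11c, passed as lower (log2 fold change -0.65) although it was under the viral probe in all 9 mice, and Irf4 was not called in any comparison. The summed level was 911 to 1074 without leukemia, 794 to 1000 with vehicle and 1106 to 1695 with rIL-12. Bst2 counted 382, 381 and 505, then 340, 455 and 348, and then 727, 1354 and 697 in the same order. Bst2 is a marker of plasmacytoid dendritic cells, as is Siglech, and is itself induced by interferons in other cells. Bst2 and the H2-A genes shared rIL-12 mouse 2 as the highest mouse.

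Of 9 B-cell genes, edgeR called none with rIL-12 against no leukemia and 1, Btk, was higher at an unadjusted p under 0.05, and the summed level was 1555 to 1704 without leukemia, 1830 to 2109 with vehicle and 1833 to 2079 with rIL-12. With vehicle against no leukemia 1 of the 9 rose, and with rIL-12 against vehicle 2 fell. Ms4a1 was at or near the viral probe in every mouse, and Btk and Cd79b, the most abundant of the list, were not called in any comparison.

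Of 5 NK cell genes, Klrk1 rose with rIL-12 against no leukemia (log2 fold change 1.43), Klrd1 and Eomes fell, and Ncr1, the defining marker, was under the viral probe in all 9 mice. The summed NK level was 883 to 1210, 570 to 875 and 734 to 1334 in the 3 groups. T-cell genes went the other way from class II, with 10 of 11 lower with rIL-12 than without leukemia and Cd4 not called. Cd3d counted 1861, 1081 and 1528 without leukemia, 982, 908 and 553 with vehicle, and 308, 468 and 593 with rIL-12. Cd3d changed by -1.71 on the log2 scale between rIL-12 and no leukemia, Lck by -1.60 and Cd8b1 by -3.12. With vehicle against no leukemia 2 of the 11 were called lower, Cd8a (-1.68) and Cd8b1 (-2.15). With rIL-12 against vehicle 2 were called lower, Lck (-0.86) and Zap70 (-1.19), while Cd8b1 (-0.97) was not called. Of 3 mast cell and basophil genes, Cpa3 and Ms4a2 rose with rIL-12 against no leukemia (log2 fold changes 1.12 and 0.89). Both also rose with vehicle against no leukemia (0.94 and 1.13), and neither was called with rIL-12 against vehicle (0.18 and -0.24). Csf3r, the 1 granulocyte gene measured, was not called. Of 11 housekeeping genes, 3 rose with rIL-12 against no leukemia and 4 against vehicle, and they summed to 43184 to 46210 without leukemia, 39672 to 45781 with vehicle and 51500 to 70128 with rIL-12. The part of cell composition and of these housekeeping levels in the class II result was not tested.

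Among 509 named probes with a mean count above the viral probe, the 5 whose profile over the 9 mice was nearest to the mean of the 8 genes included Ptafr, Acadl, Klrk1 and Bak1, with root mean square differences of 0.198, 0.210, 0.213 and 0.221 on the log2 scale. The mean profile itself varied by 0.57 on that scale. The nearest to Ciita were Hspa5, Ifng and Entpd1, at 0.311, 0.320 and 0.341. For H2-Ab1 alone, a profile picked after its values were seen, the nearest was Cxcl9 at 0.288, followed by Klrk1 at 0.575. Within the family, H2-DMa and H2-DMb2 (0.237) and H2-Aa and H2-Ab1 (0.252) were the nearest pairs, and H2-Ob and H2-Ab1 (1.433) the farthest. H2-DMa and H2-DMb2 themselves varied by only 0.385 and 0.355 over the mice, while H2-Aa and H2-Ab1 varied by 1.156 and 1.16. The first distance is thus large beside the spread of its genes and the second small. H2-DMb2 was also above the viral probe in only 3 of 9 mice.

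**Figure D5:**
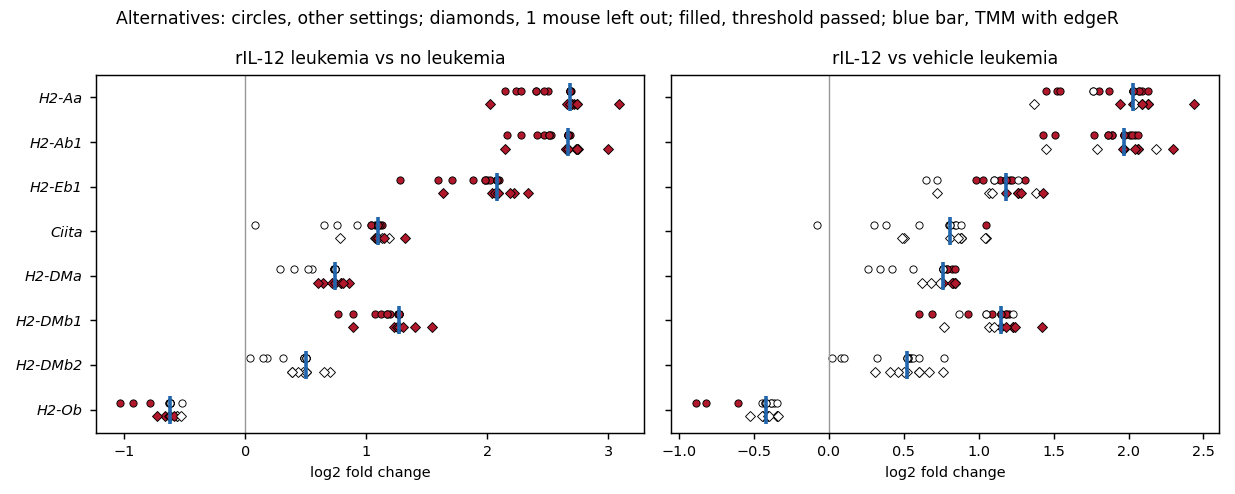
Log2 fold change (x axis) of each class II probe and Ciita under other settings (circles) and with 1 mouse left out (diamonds), for rIL-12 against no leukemia (left) and against vehicle (right). Filled symbols passed the threshold and the blue bar is the value given in the text. H2-Aa, H2-Ab1, H2-Eb1 and H2-DMb1 stay above 0 under every setting in both panels.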

How the data were processed

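RNA of T-cell isolates from 9 mice was hybridized to the nCounter panel. The values the authors deposited are raw counts, whole numbers for each probe and mouse, before the nSolver normalization that their methods name, and the settings of that step are not given in the sources used here. The table holds 785 probes and all columns were used. Probe transcripts were matched to symbols through a RefSeq table (GRCm38.p6), for 751 probes.

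Counts were scaled with TMM and tested in R 4.3.3 by edgeR 4.0.16 (quasi-likelihood test). The model held the 3 groups without a block for the replicate number, and the prior count was 1. A gene was called where it changed at least 1.5-fold and its p, adjusted over the whole panel by Benjamini-Hochberg, was under 0.05, and the test was tested on simulated data. Intervals at 95% came from the same fit. Exact permutation tests (two-sided) were run on single genes and ratios. The genes, gene lists and tests were chosen with earlier results of these data known. All 8 genes were named in full, as were called genes of the pathway, receptor and costimulation lists, the 3 most abundant genes of each cell type list, and the probes nearest in profile. Other genes named were chosen after their values were seen, and a few genes that this rule names are not reported here.

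Replicate numbers were checked as pairs. Deviations of same-numbered mice correlated at 0.113 to 0.26 between vehicle and no leukemia, and at -0.187 to 0.007 between rIL-12 and no leukemia. Between rIL-12 and vehicle they correlated at 0.018 to 0.335. Differently numbered mice gave -0.257 to 0.13, -0.125 to 0.234 and -0.398 to 0.23 in the same order of comparisons. The ranges overlapped each time, and the numbers were not taken as pairs. Alternatives were the replicate block, DESeq2 1.42.0 size factors and test, scaling by 11 housekeeping genes or the total count, quantile normalization with limma 3.58.1, filters at a mean count of 20 and at the viral probe, counts raised to the viral probe, the methods' t-test on log2 values, a model of only the compared groups, other fold thresholds and leaving out each mouse. Scaling by the geometric mean of the housekeeping genes, and DESeq2 with a mouse left out, were chosen after seeing the data. Total counts of 257613 to 711748 per mouse set the precision. Promoter motifs were searched in 32851 sequences with Python 3.11.15.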

Additional observations from a re-analysis of the deposited data

How the results depend on the processing

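The number of the 8 genes called was 0, 7 and 5 with vehicle against no leukemia, rIL-12 against no leukemia and rIL-12 against vehicle. With each mouse left out it was 0 to 0, 5 to 7 and 0 to 5, and with the replicate block, which pairs mice by number, it was 0, 7 and 5 and changed no call. With adjusted p, the methods' t-test gave 0 genes in both comparisons with rIL-12, and 0 of all 785 probes, while at an unadjusted p it called 2, 7 and 2 in the 3 comparisons, against 56, 109 and 76 of all probes. With only the compared groups in the model the count was 3 with vehicle against no leukemia and 3 with rIL-12 against vehicle. In all other settings it was within 1.5 times of the value in the text.

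Over all probes, calls with vehicle against no leukemia were 21, against 3 with housekeeping scaling, 50 with DESeq2 and 63 with only the compared groups. With rIL-12 against vehicle they were 108, with 67 higher and 41 lower, against 262 with housekeeping scaling (17 higher and 245 lower), 239 with its geometric mean, 51 with quantile normalization and 27 with only the compared groups. Housekeeping scaling moved the median of the whole panel to -0.405 on the log2 scale with rIL-12 against no leukemia (17 higher and 131 lower, against 70 and 68) and to -0.565 against vehicle. Total count scaling gave 37 higher and 83 lower, and 42 higher and 85 lower, in the same comparisons. The cause was not tested.

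The small difference of H2-DMa between vehicle and no leukemia (-0.02) turned to 0.03 with housekeeping scaling, 0.06 with the geometric mean, 0.10 with quantile normalization, and lay between -0.12 and 0.06 with 1 mouse left out, at 0.02 without no leukemia mouse 3 and 0.06 without vehicle mouse 3. That of H2-DMb2 (-0.02) turned to 0.03, 0.06, 0.11 with counts raised to the viral probe, and lay between -0.26 and 0.18 with 1 mouse left out, at 0.10 without no leukemia mouse 3 and 0.18 without vehicle mouse 2. Ciita with rIL-12 against vehicle turned to -0.08 with counts raised to the viral probe. H2-Aa, H2-Ab1, H2-Eb1 and H2-DMb1 kept their call against no leukemia in 23 of 24 alternatives each, the exception being the methods' t-test with adjusted p. Against vehicle the calls of these genes, in the same order, were lost in 5, 4, 9 and 7 of 24 alternatives. Counts near the viral probe limit what can be read from Ciita, H2-DMb2 and H2-Eb1.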
